A study of Ovis aries with 44 samples.

Results

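The comparison covers postnatal growth of the semimembranosus, a large muscle of the hindquarter, and sets lambs at 80 d of age against lambs at 10 d. The members were the 8 arrays labelled with these ages, chosen from the 22 arrays of the series by age and genotype. At each age there were 2 normal (+/+) lambs and 2 callipyge (+/Cpat) lambs, which carry the callipyge allele inherited from the sire. RNA of each lamb was hybridized to its own Affymetrix bovine array, so the values are levels of sheep transcripts on bovine probes, given as RMA values on the log2 scale. Arrays at 30 d, and those of lamb 1 of both genotypes at 20 d, were left out because their RMA values have another distribution; lamb 2 of both genotypes at 20 d is given only as a description. Different lambs were sampled at each age. The labels state that lambs nursed their ewes until collection, whereas the study's methods describe weaning onto a mixed ration before 80 d, so age, weaning and diet cannot be told apart in these data.

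Skeletal muscle of a lamb grows after birth by enlargement of fibres that are already formed, fed by the division and fusion of satellite cells. Fetal and neonatal myosins are replaced by adult fast and slow myosins, the fetal growth factors of the imprinted IGF2 and H19 locus are turned down, and the matrix laid down around the fibres matures. Fuel use shifts as well, because the newborn lives on milk fat and the older lamb on products of the rumen. In callipyge lambs the hindquarter muscles become hypertrophied after birth.

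Array level was alike at both ages, with mean RMA values of 5.50 to 5.52 at 10 d and 5.51 to 5.52 at 80 d. The 3′ minus 5′ difference of the actin control, a sign of RNA length, was 0.54 to 0.65 at 10 d and 0.54 to 0.64 at 80 d on the log2 scale. The 24 control probe sets for bacterial RNA added before labelling averaged 6.09 to 6.56 on the arrays at 10 d, 6.33 and 6.42 at 20 d and 5.73 to 5.97 at 80 d, so these controls were lower on all 4 arrays at 80 d. The 9 hybridization controls averaged 10.02 to 10.25 at 10 d and 9.80 to 10.10 at 80 d. The part of this difference in the results was not tested. XIST, the RNA made from the inactive X chromosome of female cells, was at 7.06 in 10 d normal lamb 2 and at 4.32 to 4.78 in the other 7 lambs, and sex is not among the labels used here. Markers of skeletal muscle fibres were steady between the ages: of 12 measured, 1 was higher (DES, the intermediate filament desmin) and none was lower, with a median log2 difference of 0.01.

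Of 24016 probe sets, 1911 differed between 80 d and 10 d after Benjamini-Hochberg adjustment in limma at a threshold of 0.1, which is 7.96% of those tested. Higher levels at 80 d were found for 965 probe sets (4.02%) and lower levels for 946 (3.94%). With 1 probe set for each of 9154 genes, 4.97% were called higher and 6.18% lower, the shares to set beside the counts of gene lists below. Most differences were small. The median absolute difference of the called probe sets was 0.54 on the log2 scale, and 89 of those that rose and 63 of those that fell did so by at least 1. The 4 lambs at 80 d lay all above the 4 lambs at 10 d for 1257 probe sets (5.23% of all) and all below them for 1062 (4.42%), of which 672 and 625 were also called. The number of calls rests on pooling the spread over probe sets: with the ordinary variance of each probe set none was called at 0.1, although 3588 had an unadjusted p under 0.05. With scaled MAS5 values of the same arrays 1 probe set was called, and 3009 had an unadjusted p under 0.05. The direction was shared far more widely than the call, since 1883 of the 1911 probe sets (98.5%) differed the same way in MAS5 values. Leaving out 10 d normal lamb 2, the lamb high in XIST, gave 1431 calls. The count was 799 without 80 d normal lamb 1, 896 without 10 d normal lamb 1, 1018 without 80 d normal lamb 2, 1091 without 80 d callipyge lamb 2 and 1283 to 2819 without any of the other 3 lambs.

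Among the 15 largest falls were a muscle enzyme of NAD synthesis, a fetal growth factor and a cell division gene. Values below are RMA values in the order normal lamb 1, normal lamb 2, callipyge lamb 1 and callipyge lamb 2. NMRK2, which phosphorylates nicotinamide riboside on the way to NAD and is made chiefly in muscle, was at 12.75, 12.27, 12.42 and 12.38 at 10 d and at 8.87, 8.96, 10.46 and 10.22 at 80 d. Every lamb at 80 d was therefore well below every lamb at 10 d, and the 2 normal lambs at 80 d were the lowest. The difference was -2.83 on the log2 scale (SE 0.12, adjusted p = 2.64e-05 in limma), a 7.11-fold lower level. NMRK2 was also the probe set called in MAS5 values, with a difference of -3.28.

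IGF2, the imprinted fetal growth factor, was at 12.10, 11.47, 12.29 and 12.37 at 10 d and at 10.30, 10.34, 10.03 and 10.17 at 80 d. The groups did not overlap and the difference was -1.84 (SE 0.13, adjusted p = 0.000398 in limma). A second IGF2 probe set fell by 1.21 on the log2 scale, and the remaining 2, which were dim, differed by -0.13 and -0.10 and were not called. H19, the maternally expressed RNA next to IGF2, is named from the study's own annotation of its probe set. It was at 12.30, 12.01, 11.95 and 11.84 at 10 d and at 11.12, 10.85, 10.55 and 10.92 at 80 d, a fall of -1.17 (SE 0.12). Both neighbours at this locus were thus lower in all 4 older lambs. MEST, another imprinted gene of fetal growth, fell by 1.05, from 8.03 to 8.38 at 10 d to 6.88 to 7.32 at 80 d. Of 17 imprinted genes measured under a single symbol, 4 fell (GATM, IGF2, MEST and PEG10) and 1 rose (DLK1), and PEG10 had the opposite sign in MAS5 values. The calls of DLK1 and PEG10 each held in 2 of 8 omissions of a lamb.

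GATM, which makes the creatine precursor guanidinoacetate, was at 7.78, 6.51, 5.70 and 7.07 at 10 d and at 5.37, 4.66, 4.82 and 3.39 at 80 d. The spread among lambs of 1 age was wide, but no lamb at 80 d reached the lowest lamb at 10 d, and the difference was -2.20 (SE 0.41, adjusted p = 0.017 in limma). Among the other genes of creatine and adenylate metabolism, AK1 (adenylate kinase) and ADSL (purine synthesis) fell and SLC6A8, the creatine transporter, rose by 0.40. IGF1, the main postnatal growth factor of this family, did not pass the test in any of its 4 probe sets, whose differences were 0.02 to 0.07. In scaled MAS5 values 1 of these probe sets had means of 7.97 at 10 d and 9.33 at 80 d, and the others differed by less. The 2 measures thus disagreed for that probe set. SOCS2, an inhibitor of growth hormone signalling, fell by 0.73, and with IGF2 it made 2 of 19 genes of the IGF and growth hormone axis that fell, while none rose. These 2 were 10.5% of the list, against 6.18% of all genes called lower.

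Myosins of the fetus and newborn were lower at 80 d. MYH8, the perinatal myosin heavy chain, was at 7.20, 6.64, 8.75 and 7.97 at 10 d and at 6.14, 5.99, 5.48 and 5.90 at 80 d. The callipyge lambs were the highest at 10 d and the lowest at 80 d, but the test of the difference between genotypes had an adjusted p of 0.702 in limma. MYH3, the embryonic myosin heavy chain, fell by 0.92 (SE 0.20), from 6.54 to 7.85 at 10 d to 5.99 to 6.22 at 80 d. ACTC1, the cardiac actin made in fetal skeletal muscle, fell by 0.90 (SE 0.18), with 80 d normal lamb 1 at 11.52 and 10 d callipyge lamb 2 at 11.51. These were the 3 called of 10 embryonic and neonatal isoforms.

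Few adult contractile genes were called. The adult fast myosin MYH1 was measured by 8 probe sets; 7 differed by -0.06 to 0.22 and were not called, and the remaining one, at 5.78 to 6.99 at 10 d, fell by 1.01. Bovine myosin probes can cross-react between paralogs, so this last value is uncertain. MYH7, the slow myosin, rose by 0.62 (SE 0.13) in one probe set, from 9.45 to 9.90 at 10 d to 10.02 to 10.38 at 80 d, while its brightest probe set differed by 0.04. Among 10 fast fibre genes, MYLK2 (myosin light chain kinase of skeletal muscle, 0.78) and MYOZ3 (a Z-disc protein, 0.63) rose. Of 11 slow fibre genes MYL3, the slow light chain, fell by 0.71 and MYBPC1 rose by 0.34. The MYBPC1 call held in 1 of 8 omissions of a lamb. The fall of MYL3 was 1.25 in callipyge lambs, while its difference in normal lambs was -0.18 and was not called (interaction adjusted p = 0.497 in limma). The median difference of the slow fibre list was 0.21 in normal and -0.35 in callipyge lambs, so the pooled median of -0.10 averaged opposite signs, and the difference between genotypes was not tested for the list. Excitation-contraction genes were lower where called: CACNB1, CACNA2D1, KCNJ2 and FKBP1A, which serve the calcium channel, the resting potential and the calcium release channel, fell by 0.56 to 0.96, and 11 of 12 measured members had a negative difference. These 4 became 2 without 10 d normal lamb 2, 2 without 80 d callipyge lamb 2 and 3 or 4 without any other lamb.

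**Figure D1:**
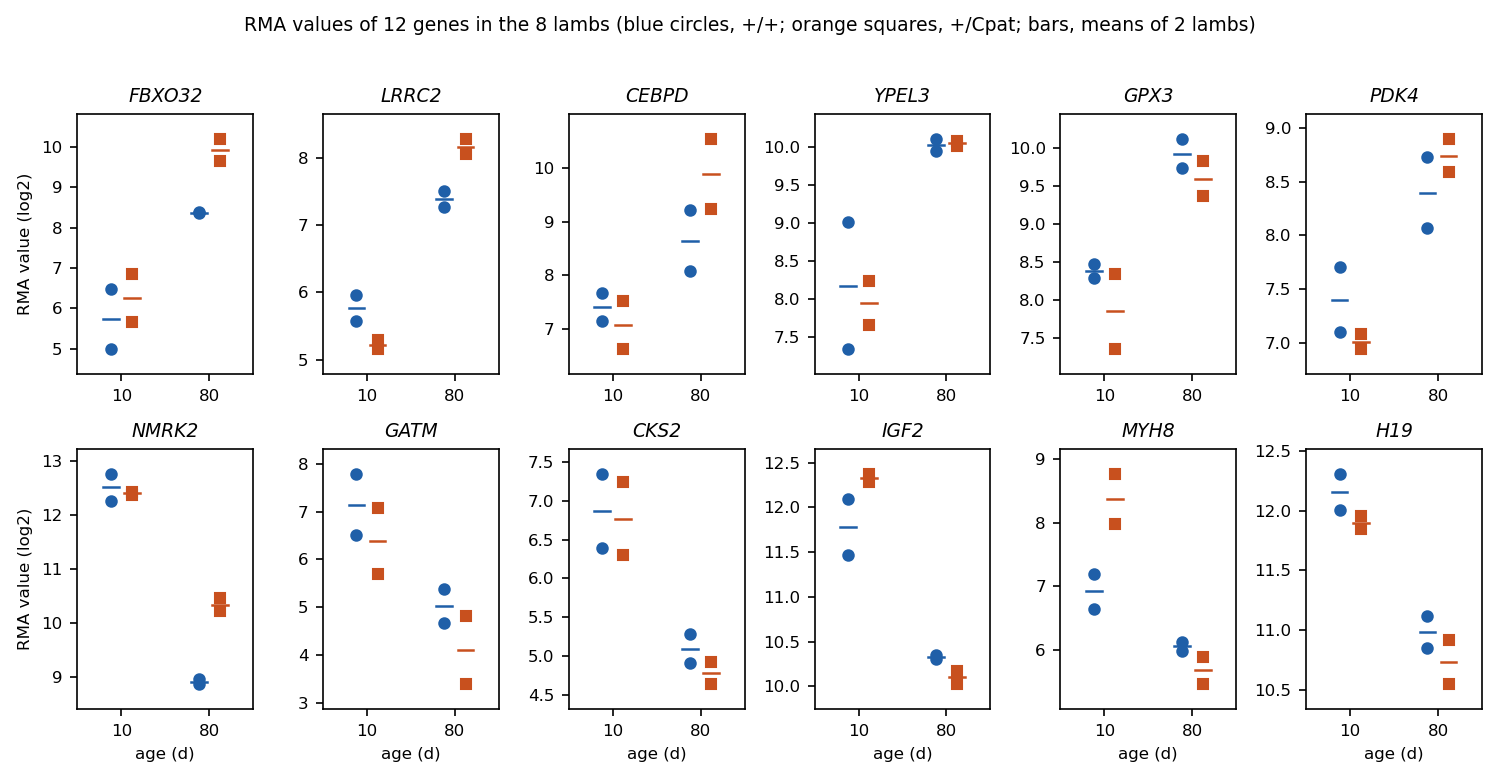
RMA values (log2) of 12 genes at 10 d and 80 d, with 1 point for each lamb (blue circles, +/+; orange squares, +/Cpat) and bars at the mean of 2 lambs; each panel has its own axis, which does not start at 0. FBXO32, LRRC2, CEBPD, YPEL3, GPX3 and PDK4 (top) lay higher in every lamb at 80 d, and NMRK2, GATM, CKS2, IGF2, MYH8 and H19 (bottom) lay lower in every lamb.

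Some genes of cell division fell, and few rose. CKS2, a subunit of the cyclin-dependent kinases, was at 6.39, 7.34, 6.30 and 7.24 at 10 d and at 4.90, 5.28, 4.92 and 4.64 at 80 d, a difference of -1.88 (SE 0.24, adjusted p = 0.00522 in limma). STMN1, which takes microtubules apart, was at 9.17, 10.02, 9.48 and 9.74 at 10 d and at 8.47, 8.98, 8.07 and 7.86 at 80 d, a difference of -1.26 (SE 0.19). Of 45 cell cycle genes, 7 fell (CKS2, STMN1, NUSAP1, CCNB1, UBE2C, ASF1B and H2AZ1) and 1 rose (TPX2, a spindle protein, by 0.68). Over all 9154 genes, taken with 1 probe set each, 4.97% were called higher and 6.18% lower, against 2.22% and 15.6% of the cell cycle genes. The median difference of the list was -0.24, that of all genes was -0.01, and 35 of the 45 had a negative difference. Without 80 d normal lamb 1, 3 of these genes were called lower, and without 10 d callipyge lamb 1, 14 were.

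CCND2, the cyclin D of growing muscle cells, was at 8.36, 8.49, 8.0 and 8.06 at 10 d and at 7.39, 7.93, 6.90 and 6.99 at 80 d, a fall of -0.92 (SE 0.12). The inhibitor CDKN2C (p18), the pocket protein RBL2 and the antiproliferative BTG1 rose by 0.88, 0.60 and 0.92, each with all lambs at 80 d above all lambs at 10 d. Of 12 genes in the list of cyclins D and inhibitors 3 rose, 1 fell and 8 were not called, and the median difference was 0.14 in normal and 0.0029 in callipyge lambs. Of the chromatin genes typical of dividing or fetal cells, the DNA methyltransferases DNMT3A and DNMT1, the histone methyltransferase EZH2 and the fetal RNA-binding protein IGF2BP3 fell by 0.41 to 0.79, and HMGB1 rose by 0.45, among 14 measured. These 4 falls became 1 without 80 d normal lamb 2, 5 without 10 d callipyge lamb 2 and 2 without any of the other 6 lambs. MYOG, the myogenic factor of differentiation, fell by 0.82 (SE 0.16), from 8.23 to 8.69 at 10 d to 7.44 to 8.0 at 80 d. MYOD1, the factor of activated satellite cells, fell by 0.54 in 1 of its 2 probe sets and differed by -0.22 in the other, which was not called. The MYOD1 call held in 2 of 8 omissions of a lamb, and in scaled MAS5 values of the called probe set the ages overlapped. MYF6, the myogenic factor of mature fibres, rose by 0.65 (SE 0.11), from 10.41 to 10.78 at 10 d to 11.03 to 11.49 at 80 d. MUSTN1, a small nuclear protein of muscle and bone, rose by 1.29. Myostatin (MSTN), the brake on muscle growth, differed by 0.52 and 0.50 in its 2 probe sets and was not called. It was at 5.62, 5.69, 5.80 and 7.12 at 10 d and at 5.38, 5.99, 7.73 and 7.20 at 80 d in the first probe set, so the ages overlapped.

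Many genes of the respiratory chain, which passes electrons to oxygen and drives ATP synthesis, were lower at 80 d, each by a small amount. Of 37 complex I genes 20 fell and none rose, with a median difference of -0.40 and with all 37 below 0. Complexes II to IV had 15 of 30 lower and a median of -0.35, and the ATP synthase had 8 of 16 lower and a median of -0.30. No member of these lists rose. COX7A2, a subunit of cytochrome oxidase, was at 9.61, 8.91, 9.10 and 8.98 at 10 d and at 8.0, 7.78, 8.08 and 8.18 at 80 d. This was the largest fall of the respiratory chain lists, -1.14 (SE 0.15, adjusted p = 0.00545 in limma). NDUFC1 of complex I fell by 0.80 (SE 0.12), UQCRH of complex III by 0.63 (SE 0.09) and ATP5MC1 of the ATP synthase ring by 0.59 (SE 0.10), each with no overlap of the ages. The lambs were less cleanly divided by the lists as a whole. The median of the complex I genes, each taken relative to its mean over the 8 lambs, was 0.33, 0.31, -0.05 and 0.17 at 10 d and -0.13, 0.06, -0.28 and -0.39 at 80 d. Within each genotype the older lambs were lower, but 80 d normal lamb 2 lay above 10 d callipyge lamb 1. The number of complex I genes called lower was 5 without 80 d normal lamb 1, 10 without 10 d normal lamb 1, 11 without 10 d normal lamb 2, 11 without 80 d callipyge lamb 2 and 15 to 24 without any other lamb. For complexes II to IV the count was 3 without 80 d normal lamb 1 and 5 to 14 without any other lamb, and for the ATP synthase it was 2 and 3 to 8.

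Genes of the mitochondrial and cytosolic ribosomes shared this direction. Of 67 mitochondrial ribosomal proteins 17 fell, none rose, 61 were below 0 and the median difference was -0.24. This count depended on the lambs, since 1 was called without 10 d normal lamb 1, 1 without 80 d normal lamb 1, 5 without 80 d callipyge lamb 2, 8 without 80 d normal lamb 2 and 11 to 23 without any other lamb. MRPS31 fell by 0.67 and MRPL41 by 0.72. Of 69 cytosolic ribosomal proteins 21 fell, none rose, 59 were below 0 and the median was -0.25. RPS27 of the small subunit was at 12.09, 11.71, 11.59 and 11.55 at 10 d and at 11.11, 11.15, 10.93 and 10.84 at 80 d, a difference of -0.73 (SE 0.11). RPL8 of the large subunit fell by 0.64 (SE 0.10), and all lambs at 80 d lay below all lambs at 10 d for it as well. The count of cytosolic ribosomal proteins was 8 without 10 d normal lamb 1, 9 without 80 d normal lamb 1, 9 without 80 d callipyge lamb 2, 10 without 80 d normal lamb 2 and 16 to 20 without any other lamb. Processed copies of ribosomal protein genes are common, so probe sets of this family may measure more than 1 locus. Translation factors did not move as a group: of 50 measured, 2 rose (EIF4H and EIF1B), 3 fell (EEF1B2, EIF4E2 and EEF1G) and the median was -0.04. Ribosome biogenesis had 1 rise and 1 fall among 27.

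**Figure D2:**
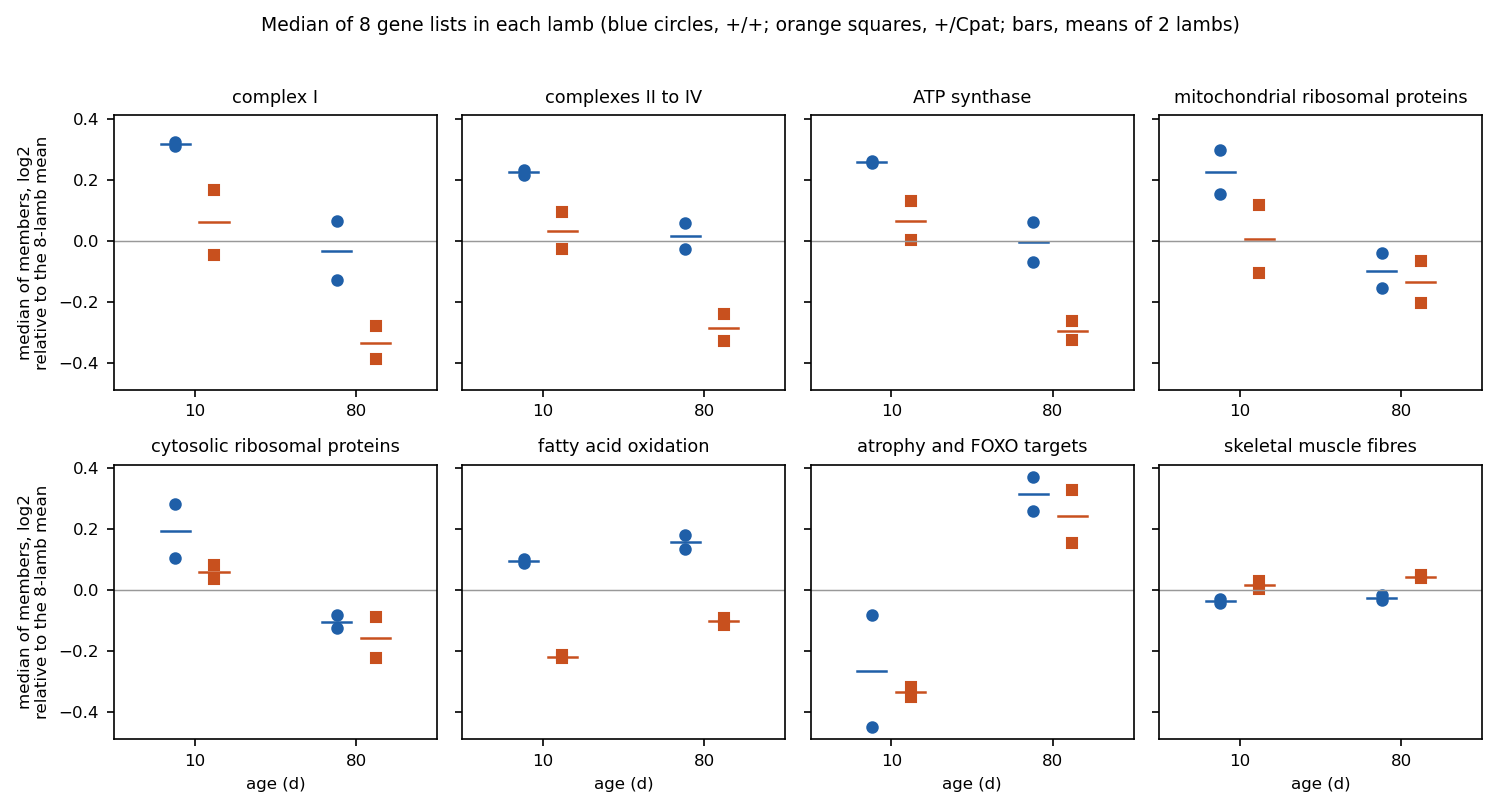
Median over the members of 8 gene lists in each lamb, each member taken relative to its mean over the 8 lambs (log2), at 10 d and 80 d (blue circles, +/+; orange squares, +/Cpat; bars, means of 2 lambs). Respiratory chain and ribosomal lists were lower at 80 d on average within each genotype, atrophy genes were higher, fatty acid oxidation differed mainly by genotype and the muscle fibre markers stayed near 0. For mitochondrial ribosomal proteins the ages overlapped in callipyge lambs, with lamb 1 at -0.11 at 10 d and at -0.06 at 80 d.

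Genes that supply the respiratory chain were divided. In the TCA cycle and pyruvate entry IDH2, ACO1, PDHB and MPC2 fell by 0.40 to 0.56, 4 of 20 measured, and 17 had a negative difference. None was called without 10 d normal lamb 1 or without 80 d normal lamb 1, 1 was called without 80 d normal lamb 2, 2 were without 10 d normal lamb 2 and 3 to 6 were without any other lamb. In fatty acid oxidation 4 of 34 rose and none fell, with a median of 0.10 and with 2 to 4 rises when any 1 lamb was left out. UCP3, a mitochondrial carrier induced by fatty acids, was at 9.61, 10.08, 10.00 and 9.90 at 10 d and at 10.49, 10.28, 11.40 and 11.30 at 80 d, a rise of 0.97 (SE 0.12, adjusted p = 0.00488 in limma). ANGPTL4, which inhibits lipoprotein lipase and is induced by fatty acids, rose by 0.94, and HADHB and ACAA2 of the oxidation spiral rose by 0.57 and 0.36. PDK4, the kinase that closes pyruvate dehydrogenase, was at 7.10, 7.70, 6.94 and 7.08 at 10 d and at 8.73, 8.06, 8.59 and 8.89 at 80 d. The rise was 1.36 (SE 0.18) in this probe set and 1.29 and 0.78 in the other 2, all with no overlap. Genes for branched-chain amino acid and ketone use were divided in sign, with 8 of 14 below 0, 6 above and a median of -0.04, and the 5 called were lower. BCAT2, BCKDHB, DBT and BCKDK of the branched-chain pathway fell by 0.47 to 0.58 and SLC16A1, a carrier of lactate, pyruvate and ketone bodies, fell by 0.84 (SE 0.12). The 5 became 2 without 80 d normal lamb 1, 3 without any of 10 d normal lamb 1, 10 d normal lamb 2, 80 d normal lamb 2 and 80 d callipyge lamb 2, and 4 or 5 without the others.

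Glycolytic genes went both ways, with 8 of 30 lower and 5 higher. The count of lower genes was 2 without 80 d normal lamb 1, 3 without 10 d normal lamb 1, 4 without 10 d normal lamb 2 and 6 to 8 without any other lamb, and that of higher genes was 3 to 5. ENO1, the enolase of non-muscle and fetal cells, fell by 0.92 (SE 0.12), from 9.21 to 9.76 at 10 d to 8.45 to 8.92 at 80 d. PGAM1 (the non-muscle phosphoglycerate mutase), HK1, GPI, PGAM2, LDHB and the glucose transporter SLC2A1 fell by 0.36 to 0.78. LDHB was at 9.76 and 9.92 in normal lambs at 10 d and at 9.68 and 9.90 at 80 d, against 8.59 and 8.37 and then 7.55 and 7.79 in callipyge lambs, and the difference between genotypes was not called (adjusted p = 0.702 in limma). The rises were in PFKM, the muscle phosphofructokinase (0.57), in FBP2, the muscle fructose bisphosphatase (0.38), and in PFKFB1, PFKFB3 and PFKFB4, which set the level of fructose 2,6-bisphosphate (0.44, 1.17 and 1.10). PFKFB4 was at 7.56, 7.93, 8.0 and 8.29 at 10 d and at 8.72, 8.70, 8.97 and 9.80 at 80 d. LDHA, the muscle lactate dehydrogenase, did not pass the test in its 3 probe sets, with differences of -0.16 to 0.15.

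Several genes of cholesterol synthesis fell, and few of fatty acid synthesis did. SQLE, squalene epoxidase of cholesterol synthesis, was at 6.25, 5.15, 5.56 and 6.74 at 10 d and at 4.45, 3.91, 4.08 and 4.36 at 80 d, a difference of -1.72 (SE 0.29, adjusted p = 0.0129 in limma). INSIG1, TM7SF2, HMGCS1, MSMO1 and FDPS of the same pathway fell by 0.62 to 1.09, so that 6 of 18 genes fell, and 5 to 7 did with any 1 lamb left out. FDFT1, squalene synthase, went the other way and was at 7.59, 8.07, 8.09 and 8.40 at 10 d and at 8.92, 9.15, 9.42 and 9.75 at 80 d, a rise of 1.27 (SE 0.14). SCD, the stearoyl-CoA desaturase, fell by 1.07 (SE 0.15), from 6.63 to 7.50 at 10 d to 5.42 to 6.17 at 80 d, and FASN, fatty acid synthase, fell by 0.71. These were the 2 called of 17 genes of fatty acid and triglyceride synthesis, of which 9 were below 0 and 8 above, with a median of -0.01. The count was 2 without 10 d callipyge lamb 2, 4 without 10 d callipyge lamb 1 and 1 without any of the other 6 lambs.

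The largest rise was in a gene of muscle protein breakdown, and other members of its list rose by less. FBXO32, the muscle ubiquitin ligase atrogin-1, was at 4.99, 6.48, 6.85 and 5.67 at 10 d and at 8.38, 8.35, 9.66 and 10.19 at 80 d. Every lamb at 80 d was above every lamb at 10 d by at least the gap from 6.85 to 8.35, and the rise was 3.15 (SE 0.33, adjusted p = 0.00312 in limma), or 8.87-fold. A second FBXO32 probe set rose by 2.92 (SE 0.33). SESN1, a sestrin induced by p53 and FOXO factors, was at 8.09, 7.81, 7.73 and 7.90 at 10 d and at 9.37, 9.42, 8.67 and 9.32 at 80 d, a rise of 1.31 (SE 0.14). Dim SESN1 probe sets differed by 0.02 and 0.13 and were not called. ZFAND5, which activates the proteasome in atrophy, rose by 1.02 (SE 0.11), and MAP1LC3B (LC3, of the autophagosome), BNIP3 (mitophagy), FOXO4, CITED2, PDK4 and the transcription factor ZBTB16 rose by 0.64 to 1.09. These 9 of 19 atrophy and FOXO target genes make 47.4% of the list, none fell, the median difference was 0.48, and the count was 8 to 12 with any 1 lamb left out. The proteasome itself did not share this direction, with 1 subunit higher (PSMD4), 2 lower (PSMD10 and PSMD14) and a median of -0.05 over 30. Of 20 autophagy and lysosome genes 3 rose (LAMP2, ATP6V1B2 and GAA) and 1 fell (ATP6V1A), with a median of -0.02, and 1 rise was called without 10 d normal lamb 1 or without 80 d normal lamb 1. The GAA probe set was dim, with scaled MAS5 means of 4.91 at 10 d and 4.99 at 80 d, so its rise is uncertain. Its call held in 2 of 8 omissions of a lamb, and that of ATP6V1A in 3 of 8. CAPN3, the muscle calpain, rose by 0.49 and was the 1 called of 6 calpain genes.

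**Figure D3:**
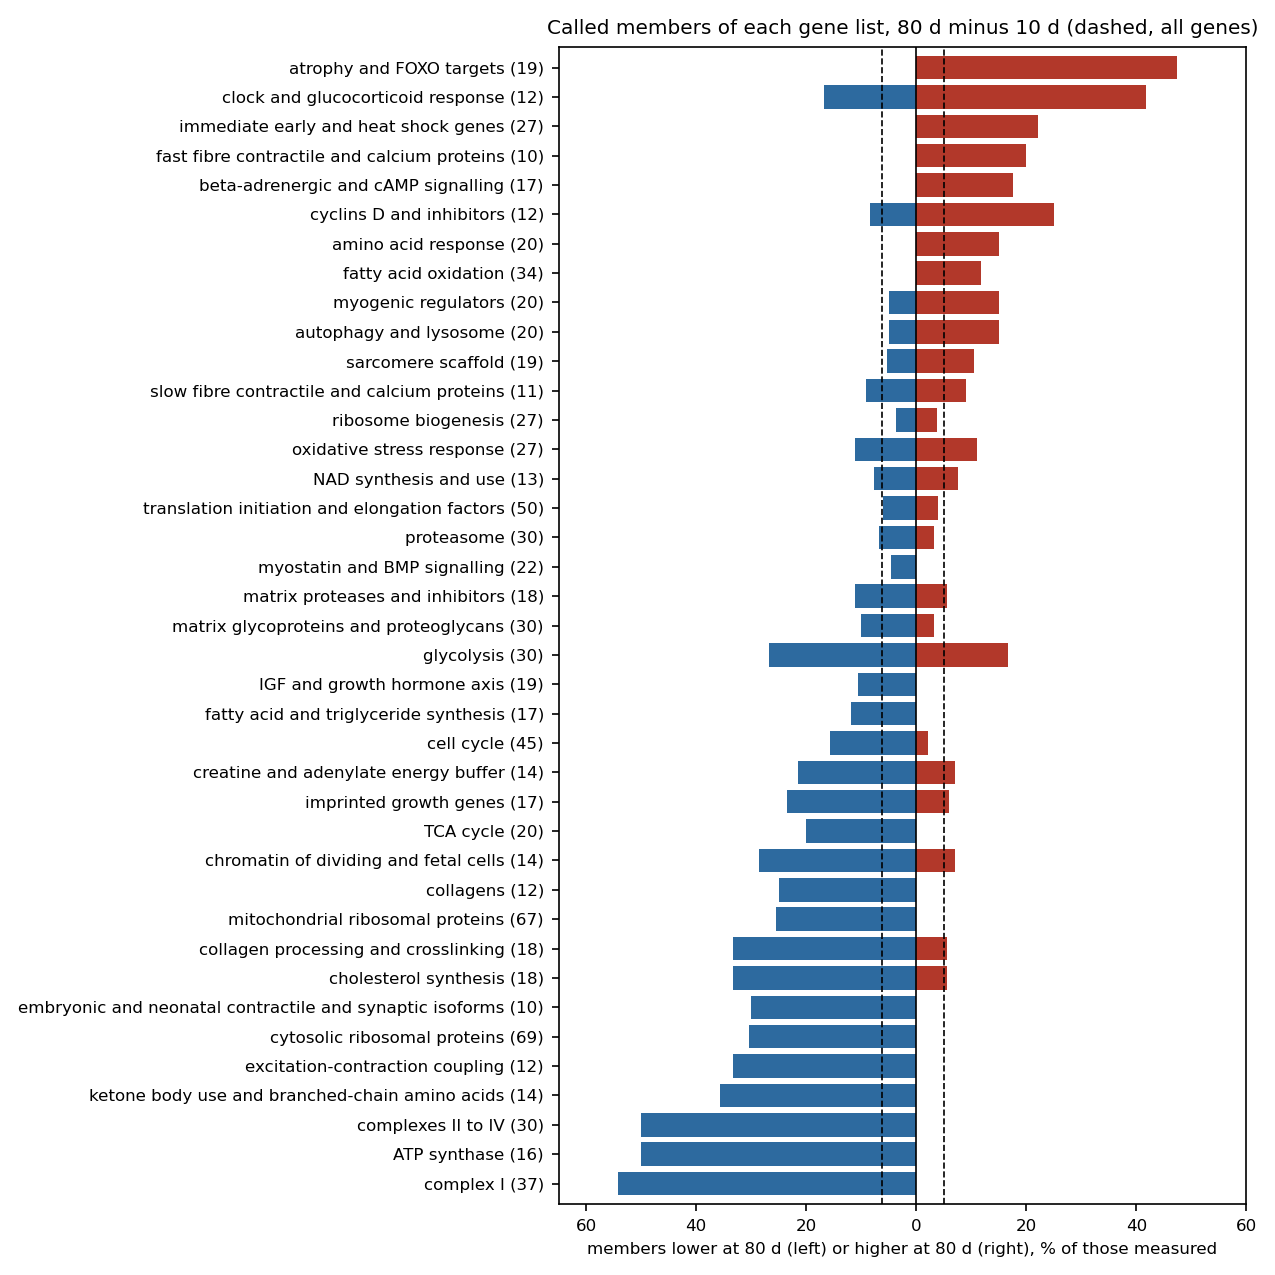
Share of measured members of each pathway list (number measured in brackets, lists of 10 or more) called lower (blue, to the left) or higher (red, to the right) at 80 d, in percent; dashed lines mark 6.18% lower and 4.97% higher over all 9154 genes. Respiratory chain lists reach 50% lower or more, and the atrophy and FOXO list reaches 47.4% higher.

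Other large rises were in regulators of transcription and stress and in antigen presentation. LRRC2, a leucine-rich repeat protein of heart and skeletal muscle, was at 5.58, 5.96, 5.28 and 5.16 at 10 d and at 7.51, 7.27, 8.28 and 8.07 at 80 d, a rise of 2.29 (SE 0.12, adjusted p = 6.72e-05 in limma). CEBPD, a transcription factor induced by glucocorticoids and cytokines, rose by 2.02 (SE 0.33) from 6.63 to 7.68 at 10 d to 8.08 to 10.53 at 80 d. Dimmer CEBPD probe sets differed by 0.70, which was called, and by 0.41, which was not. YPEL3, a growth-suppressing protein, was at 7.34, 9.0, 8.23 and 7.65 at 10 d and at 9.94, 10.09, 10.01 and 10.08 at 80 d; the older lambs lay within a narrow range and the younger did not. FBXL4 (an F-box protein of mitochondria), KLF4, KLF11, ARRDC2, RLIM and PRKCQ, a kinase, rose by 1.35 to 1.63. In further probe sets KLF11 rose by 0.91 and 1.26, FBXL4 by 1.45 and ARRDC2 by 0.52. GPX3, the extracellular glutathione peroxidase, was at 8.29, 8.48, 7.35 and 8.34 at 10 d and at 10.12, 9.73, 9.36 and 9.83 at 80 d, a rise of 1.65 (SE 0.21). Catalase (CAT) rose by 0.71 and PRDX6 by 0.55, whereas PRDX4, TXN and GPX7 fell, among 27 oxidative stress genes. TXNIP, the thioredoxin-binding protein named from the study's own annotation, rose by 0.76.

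In the list of clock and glucocorticoid response genes 5 of 12 rose and 2 fell, with a median of 0.40. The falls were in SGK1, a kinase that glucocorticoids induce, and in HLF. FKBP5, a chaperone of the glucocorticoid receptor and one of its targets, was at 5.32, 5.30, 6.16 and 5.59 at 10 d and at 6.54, 6.59, 7.01 and 7.26 at 80 d, a rise of 1.26 (SE 0.13). ZBTB16 rose by 1.09, PDK4 by 0.78 in the probe set used for the lists, the clock repressor NR1D1 by 0.61 and the receptor gene NR3C1 by 0.53. ZBTB16 and PDK4 were also counted in the atrophy and FOXO list, so these lists are not separate. The count of rises was 2 without 80 d normal lamb 1, 2 without 80 d callipyge lamb 2, 3 without 10 d normal lamb 1, 3 without 10 d normal lamb 2 and 3 without 80 d callipyge lamb 1, and 4 to 6 without any other lamb. Immediate early and heat shock genes had 6 rises among 27 and no fall: KLF4, FOS, ZFP36, HSPA1A, JUN and HSPB1. The count was 3 without 10 d normal lamb 1, 3 without 80 d normal lamb 1 and 4 to 7 without any other lamb. FOS was at 6.28, 7.01, 10.24 and 9.96 at 10 d and at 9.73, 8.17, 9.77 and 11.49 at 80 d, so that the 10 d callipyge lambs lay within the range of the older lambs. In cAMP signalling the phosphodiesterases PDE4A and PDE8A and the coactivator CRTC2 rose by 0.45 to 0.83, 3 of 17. This was 17.6% of the list, against 4.97% of all genes called higher. None fell, but 10 of the 17 had a negative difference and the median was -0.02. The CRTC2 call held in 4 of 8 omissions of a lamb.

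The remaining large falls were of varied function. DUSP10, a phosphatase of stress kinases, was at 7.89, 7.86, 7.79 and 8.20 at 10 d and at 5.99, 5.78, 6.73 and 6.95 at 80 d, a difference of -1.57 (SE 0.12). TM4SF18 (a membrane protein of endothelium), DNAJA4 (a chaperone partner), TGM1 (a transglutaminase), NREP and COL21A1 (a minor collagen) fell by 1.27 to 1.63. LOC768028, which has no name in the annotation used, fell by 1.34. One GNAS probe set, for the gene of the stimulatory G protein and its imprinted transcripts, fell by 1.34, but the other 4 differed by -0.22 to -0.58 and were not called.

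More genes of collagens and their processing fell than rose. The median difference was -0.22 over 12 collagens and -0.12 over 18 genes of processing and crosslinking, and the lists were not compared by a test. SERPINH1, the collagen chaperone HSP47, was at 10.29, 10.29, 10.04 and 10.05 at 10 d and at 9.65, 9.28, 8.85 and 8.89 at 80 d, a fall of -1.0 (SE 0.10, adjusted p = 0.00299 in limma). The prolyl hydroxylase subunits P4HA1 and P4HA2, the crosslinking enzyme LOXL1, PPIB and PCOLCE fell by 0.43 to 0.65, and PCOLCE2 rose by 0.55, so that 6 of the 18 fell and 1 rose. COL1A1, the main chain of fibrillar collagen, was at 11.13, 11.84, 10.19 and 10.69 at 10 d and at 10.92, 10.77, 9.34 and 10.07 at 80 d. Its fall of -0.69 was near the threshold (adjusted p = 0.0971 in limma) and the ages overlapped, because normal lambs were higher than callipyge lambs at both. COL1A2 fell by 0.69 in one probe set and differed by -0.57 in the brighter one, which was not called, and COL3A1 differed by -0.15 and -0.24 and was not called. The 3 called of 12 collagens, COL1A1, COL4A1 and COL15A1, were lost (0 called) without 10 d normal lamb 2, without either normal lamb at 80 d and without 80 d callipyge lamb 1. The glycoproteins NID2, LAMA4 and TGFBI fell and FBLN5, an elastic fibre protein, rose, among 30.

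Markers of other cell types gave few calls, and in whole muscle fewer cells of a type and less RNA in each cell cannot be told apart. Genes of MHC class II and antigen presentation were higher: BOLA-DRA, the class II alpha chain, was at 5.35, 6.42, 5.57 and 5.89 at 10 d and at 7.71, 7.97, 6.67 and 7.47 at 80 d, a rise of 1.65 (SE 0.24, adjusted p = 0.00772 in limma). BOLA-DRB3, the beta chain, rose by 1.55 (SE 0.15), BOLA-DQA2 by 0.94 and B2M by 0.64, which made 4 of 15, all of them with a positive difference. Class II genes are highly polymorphic, so probes may bind the alleles of different lambs unequally. Beside this, of 15 macrophage and monocyte genes 1 rose (ITGB2, by 0.56), and of 19 lymphocyte genes 2 rose (CD3E and CD3D of the T cell receptor complex). The CD3D call held in 1 of 8 omissions of a lamb, and that of CD3E in 8 of 8. The rises made 6.67% of the macrophage and 10.5% of the lymphocyte list, against 4.97% over all genes. The summed part of these cells in the rise of class II genes was not tested. Fibroblast markers were divided (GSN higher, FAP and COL1A1 lower, 16 measured), as were those of endothelium (FLT1 higher, TIE1 lower, 15 measured). Of 16 adipocyte genes CFD and LIPE rose by 0.57 and 0.52, while the defining ADIPOQ and FABP4 were not called: ADIPOQ was at 4.63 to 5.77 at 10 d and at 4.77 to 5.49 at 80 d. Among 11 erythroid genes TFRC, the transferrin receptor that growing muscle also makes, fell by 0.97, and HBB, adult beta globin, was not called in any of 4 probe sets.

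The age difference was also taken within each genotype, from 2 lambs against 2. Within normal lambs 455 probe sets were called (1.89%), 174 higher and 281 lower, and within callipyge lambs 598 (2.49%), 396 higher and 202 lower. The 158 probe sets called in both made 34.7% of the calls in normal and 26.4% of those in callipyge lambs, and 156 of them had the same direction. With so few lambs these counts turned on single animals. In normal lambs they were 9 without 80 d lamb 1, 10 without 80 d lamb 2 and 28 without 10 d lamb 1, and in callipyge lambs 93 without 80 d lamb 2, 118 without 80 d lamb 1, 294 without 10 d lamb 1 and 3308 without 10 d lamb 2. The difference between the age effects of the genotypes, their interaction, was called for 1 probe set (0.00416%), with 1683 at an unadjusted p under 0.05. Without 10 d callipyge lamb 2 the interaction gave 966 calls, and without any other lamb it gave 1 to 7.

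The 1 called interaction was in ASIP, agouti signalling protein, known as a switch of coat pigment. It was at 6.37, 6.53, 8.81 and 8.54 at 10 d and at 9.63, 9.58, 9.0 and 8.63 at 80 d. The normal lambs at 10 d were therefore low and the other 6 of these lambs were high. The rise was 3.16 (SE 0.16) in normal lambs and the difference was 0.14 (SE 0.16) in callipyge lambs, and the second lambs at 20 d were at 8.31 (normal) and 8.38 (callipyge). At 30 d, where only MAS5 values were used, low and high lambs occurred in both genotypes, at 10.91 and 8.07 in normal and 7.03 and 11.95 in callipyge lambs, against 6.81 and 7.59 in the normal lambs at 10 d on that scale. The next smallest interaction p-values belonged to GDAP1, APBB2, DNAJB5, NMRK2, FOLR3, LRRC2, P2RY1, DDO and MYL3, none of them called (adjusted p = 0.415 to 0.497 in limma). APBB2, an adaptor of the amyloid precursor protein, was at 8.66 and 8.47 in normal lambs at 10 d and 8.81 and 8.47 at 80 d, against 8.72 and 8.75 and then 10.24 and 10.21 in callipyge lambs. MYL3, the slow light chain, was at 12.19 and 12.20 and then 12.12 and 11.91 in normal lambs, against 11.77 and 11.55 and then 10.42 and 10.39 in callipyge lambs. By quantitative PCR at a single age after hypertrophy, the study found no significant effect of genotype on MYL3. Among genes that the study followed by genotype, DLK1 rose by 0.49 in its bright probe set, and TXNIP and PFKM rose and IDH2 fell as given above. PARK7, UCHL1, PDE4D and PDE7A were not called, and PDE4D differed by -0.61 in normal and by 0.21 in callipyge lambs. By quantitative PCR on more lambs and ages of this muscle, the study found an effect of age for PARK7, PDE4D and PDE7A. The study's quantitative PCR found no significant effect of age on DLK1 or IDH2, but an interaction of genotype and age for DLK1. The DLK1 call held in 2 of 8 omissions of a lamb. In scaled MAS5 values this probe set was at 11.91 and 11.39 in normal lambs at 10 d and at 11.56 and 11.81 at 80 d. In callipyge lambs it was at 13.61 and 13.22 and then at 14.38 and 14.76. MEG3, a maternally expressed RNA of the callipyge locus, fell by 0.60 (SE 0.10) in 1 dim probe set, from 5.74 to 6.16 at 10 d to 5.16 to 5.49 at 80 d, and its other 4 probe sets differed by -0.61 to 0.16 and were not called.

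**Figure D4:**
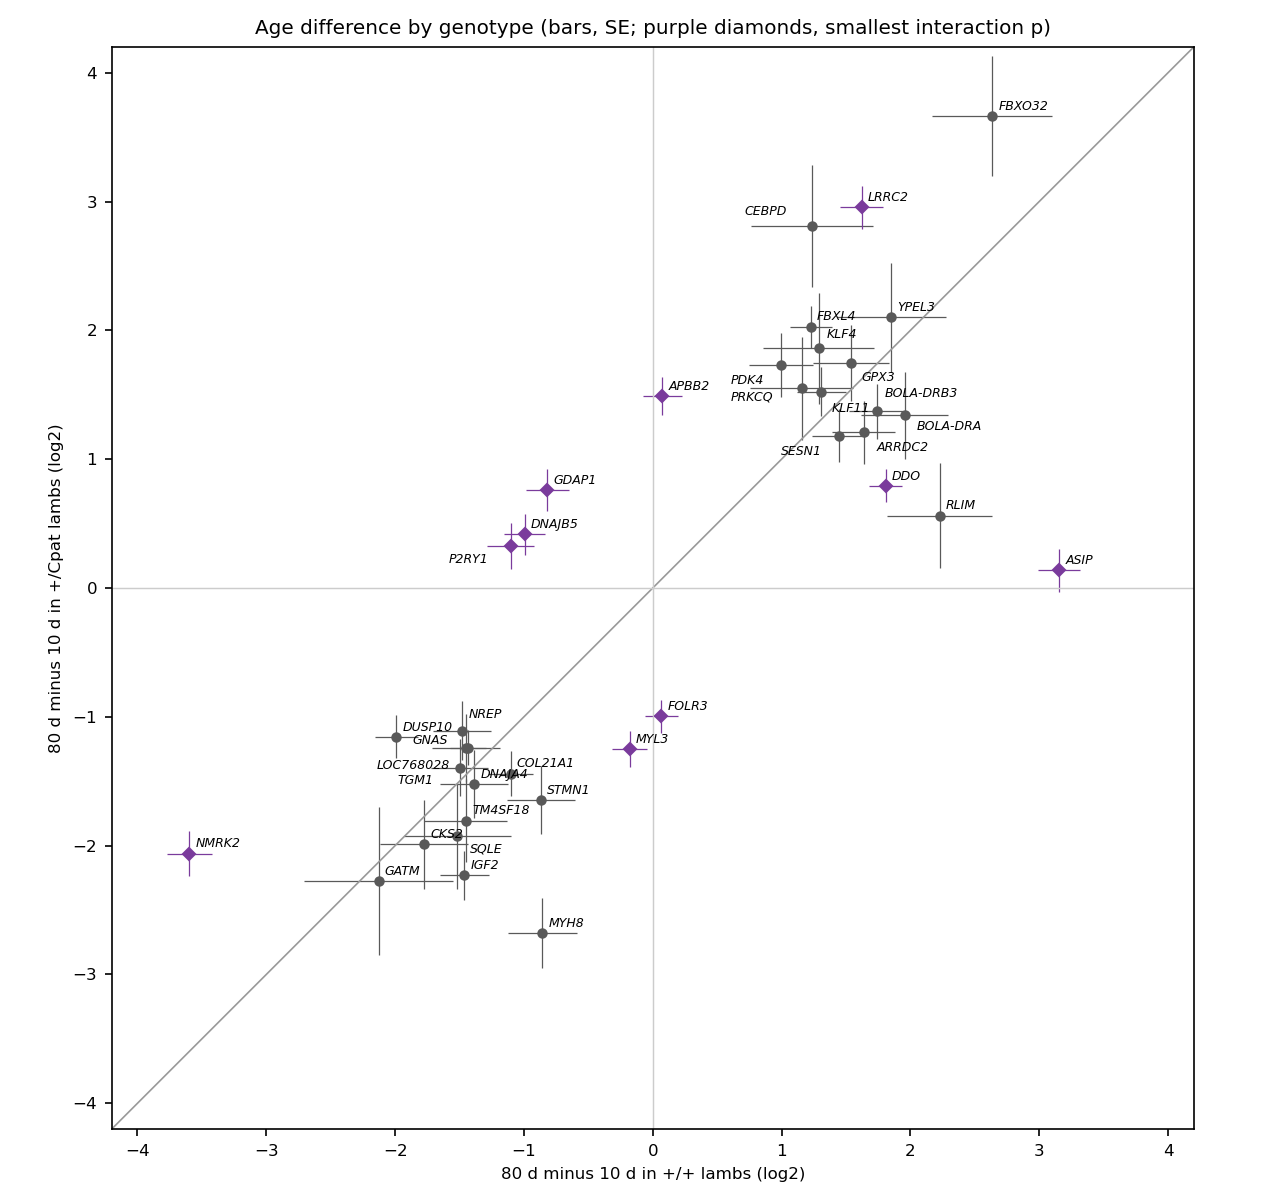
Age difference (80 d minus 10 d, log2) in +/+ lambs against that in +/Cpat lambs for the 15 genes with the largest rise, the 15 with the largest fall (circles) and the 10 with the smallest interaction p (purple diamonds, which include LRRC2 and NMRK2); bars are SE of the fit and the line marks equal differences. ASIP lies far from the line, with 3.16 in normal and 0.14 in callipyge lambs.

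At 20 d the 2 lambs whose arrays share the distribution of the 8 had intermediate values for most called probe sets. The mean of the 2 lambs lay between the means at 10 d and 80 d for 1648 of the 1911 (86.2%), against 38.0% of all probe sets, and no test was made because the called probe sets are far apart at the ends. NMRK2 was at 11.05 in the normal and 11.77 in the callipyge lamb, below all lambs at 10 d and above all lambs at 80 d. IGF2 was at 10.97 and 11.66, FBXO32 at 7.02 and 6.98, and GPX3 at 9.41 and 9.54, which is within the range at 80 d. Scaled MAS5 values, available for both lambs of each genotype at 10, 20, 30 and 80 d, gave NMRK2 means of 15.02, 14.20, 13.64 and 11.74 and COX7A2 means of 11.82, 11.46, 11.01 and 10.69 on the log2 scale. FBXO32 means were 8.51, 9.89, 9.75 and 12.01 in the probe set with the larger rise, and PDK4 means were 10.81, 9.40, 11.26 and 12.25.

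**Figure D5:**
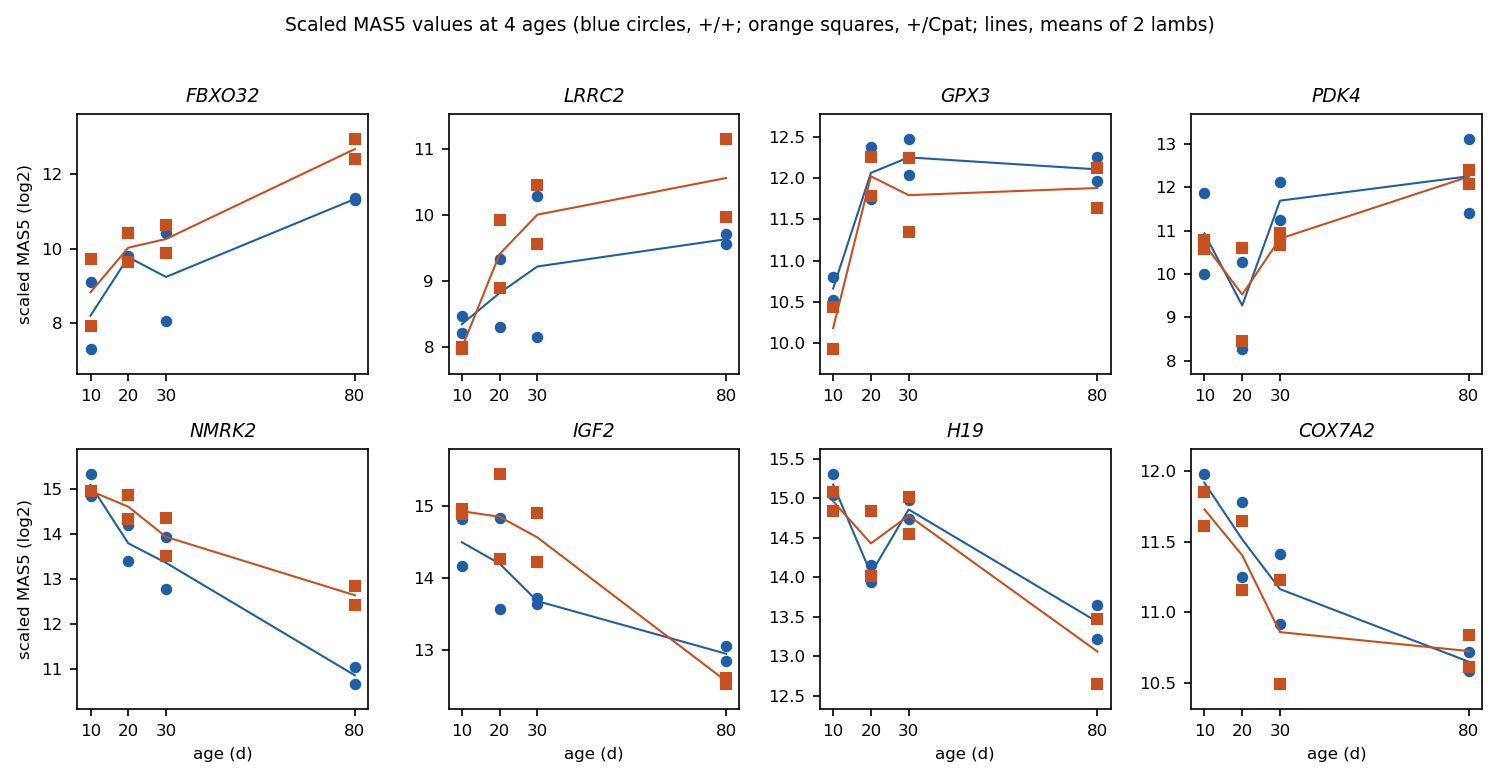
Scaled MAS5 values (log2) of 8 genes at 10, 20, 30 and 80 d, with 1 point for each lamb (blue circles, +/+; orange squares, +/Cpat) and lines through the means of 2 lambs; each panel has its own axis. NMRK2 and COX7A2 were lower at each later age on average, and FBXO32 was highest at 80 d. Points and means at 20 d include lamb 1 of both genotypes, whose RMA values were left out of the comparison.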

How the data were processed

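Per the labels, array images were processed by MAS5 in GCOS, and the deposited intensity values are linear and unscaled. The deposited log2 values of these arrays came from RMA in Bioconductor. Versions are not given in the sources used here. As deviations from the mean of the 8 lambs, over the brighter probe sets, each RMA column correlated best with its own lamb's MAS5 column (8 of 8). All probe sets but 112 controls entered the fit. With limma 3.58.1 in R 4.3.3, lmFit and eBayes fitted the 4 combinations of genotype and age to the 8 RMA columns, and contrasts gave the difference by age, by age within genotype and their interaction. Benjamini-Hochberg adjustment ran over 24016 probe sets, and calls were made at 0.1, the study's threshold. The steps were tested on simulated data. Lambs of each age were separate animals and were not paired. With 2 lambs a group and 4 residual degrees of freedom, the number of arrays limits the precision.

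Probe sets were named from GEO's platform annotation, which can be old: 13292 had 1 gene symbol, 86 several and 10638 none listed, and H19, TXNIP, PDE4D and PDE7A were named from the study's own annotation. Gene lists (43 of pathways, 11 of markers) used the brightest probe set of each of 9154 genes and were counted, not tested. The comparison, the members, the lists and the tests were chosen with earlier results of these data known. Named genes were the 15 largest rises and 15 largest falls among called probe sets whose ages did not overlap, up to 6 called members of each list, the 10 smallest interaction p-values and a fixed set of growth, fibre and fuel genes; further called members of lists were added after their values were seen. For MAS5 values each array was scaled to a trimmed mean of 500, with 2% left out at each end, and log2 was taken after adding 16. Alternatives were the ordinary variance, MAS5 with and without quantile normalization, quantile normalization of the RMA columns, brighter probe sets, an additive model, 16 arrays at 4 ages, a trended and robust prior, array weights, a threshold of 0.05, a replicate block and the omission of each lamb.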

Additional observations from a re-analysis of the deposited data

Results flagged for a closer look

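ASIP met the criterion for a difference between genotypes: its age difference in callipyge minus that in normal lambs was -3.02 on the log2 scale (SE 0.23, adjusted p = 0.00527 in limma over 24016 probe sets). In MAS5 values the same difference was -4.65, with an unadjusted p of 7.6e-05 in limma and an adjusted p of 0.375. With the 16 arrays at 4 ages the interaction was not called for any probe set. At 30 d the MAS5 values were 10.91 and 8.07 in normal and 7.03 and 11.95 in callipyge lambs, so that both genotypes held a low and a high lamb.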

How the results depend on the processing

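The age difference gave 1343 to 1960 calls, against 1911, under quantile normalization of the RMA columns, brighter probe sets, an additive model, 16 arrays, a trended and robust prior and array weights. It gave 0 calls with the ordinary variance (3588 at an unadjusted p under 0.05), 1 with MAS5 and 1 with quantile-normalized MAS5 values (3009 and 3080), and 1106 at a threshold of 0.05. The interaction gave 0 calls with the ordinary variance, 0 with either form of MAS5 and 0 with 16 arrays, with 1437, 1613, 1467 and 1137 probe sets at an unadjusted p under 0.05 in limma or the ordinary test. Normal lambs gave 0 calls with the ordinary variance, 2 with either form of MAS5, 229 with 16 arrays, 1447 with array weights and 106 at 0.05. Callipyge lambs gave 0, 0, 307, 181 and 262 under the same settings. With the replicate number as a block the age difference gave 1716 calls, the interaction 2, normal lambs 335 and callipyge lambs 550; same-numbered lambs are different animals and their deviations correlated at -0.11 to 0.15 over 6 pairs of groups. Omission of 1 lamb gave 799 to 2819 calls for age, 1 to 966 for the interaction, 9 to 936 in normal and 93 to 3308 in callipyge lambs. Without 10 d callipyge lamb 1, 40% of age calls were higher, against 54.8% without 10 d callipyge lamb 2. Of the 210 named and called probe sets, 113 were called with every lamb left out in turn, and none changed sign except PEG10 with MAS5 (0.10 with and without quantile normalization). The cause of these differences was not tested. List medians moved by more than the spread between lambs in 27 comparisons, of which 26 were with MAS5 values.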

Other observations

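Secretory and cytoskeletal genes also moved in 2 lists that were written after values of these data were seen, so their counts are descriptions. Of 36 genes of protein folding and translocation in the endoplasmic reticulum, 7 fell (MANF, PRDX4, SEC61B, SSR4, KDELR3, SEC61G and TRAM1), 1 rose (HERPUD1) and the median difference was -0.27. MANF, a protein induced by unfolded proteins, fell by 1.02, and SEC61B of the translocation channel fell by 0.54. Of 30 genes of the non-muscle cytoskeleton 9 fell, none rose and the median was -0.28. ACTB, the cytoplasmic beta actin often used as a reference gene, fell by 1.08 (SE 0.15, adjusted p = 0.00687 in limma), MAP1B, a microtubule protein of growing cells, by 1.05 and TPM4, a cytoplasmic tropomyosin, by 0.69. With any 1 lamb left out, 4 to 9 of the first list and 5 to 10 of the second were called lower.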
